A study of Mus musculus with 2 samples.

Results

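Müller glia with little Lcn2 were taken from single-cell libraries of mouse retinas that had received lipopolysaccharide (LPS, a bacterial cell wall component) in the vitreous. They numbered 156 of 8274 filtered cells (1.89%, 95% interval 1.603 to 2.20) in the control library and 193 of 4662 (4.14%, 3.59 to 4.75) in the Atg5-KO library, 349 of 12936 in all. A cell was a member if it had at least 500 genes, under 25% mitochondrial UMIs and at least 2000 UMIs. UMIs are unique molecular identifiers, each of which counts a captured RNA molecule. The summed UMIs of Rlbp1, Glul, Slc1a3, Dkk3, Crym, Abca8a, Aqp4 and Sox9 had to reach 0.15% of the cell's UMIs with at least 3 of the 8 detected, Ptprc and Tyrobp together could have at most 1 UMI, and Lcn2 had to stay under 0.1% of UMIs. The members were thus chosen by measured values, and the 11 genes of the rule are described here and support nothing.

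The control group carried Atg5fl/fl, a floxed allele of an autophagy gene, without Cre. The Atg5-KO group had GLAST-CreER besides that allele, a Cre activated by tamoxifen and under the promoter of the glutamate transporter gene Slc1a3, which is active in Müller glia and in astrocytes. Both groups received 0.5 µg LPS per eye, and 4-hydroxy-tamoxifen is listed for the Atg5-KO group alone. Whether the controls also had it is not clear from the labels, and as listed, genotype, Cre and drug cannot be told apart. Each library came from pooled retinas (6 per group), with 1 library per group: no difference below has a replicate check, there is no test, and all intervals are 95% and cover counting error only. Sex, age and the time from injection to harvest are not given in the sources used here.

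Müller glia span the retina from the vitreous to the photoreceptors and take up glutamate, potassium, water and spent retinoids for the neurons. Under injury or inflammation they shift to a reactive state, with intermediate filaments, metallothioneins and secreted cytokines, and lower the genes of their supporting role. Lcn2 encodes lipocalin 2, a secreted protein that binds bacterial siderophores and is strongly induced in reactive glia. Autophagy is the delivery of cell contents to the lysosome, and Atg5 encodes a protein needed to conjugate LC3 to its membranes.

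Of all cells that met the rule apart from the Lcn2 limit, the low-Lcn2 members were 156 of 390 in the control (40%, 35.1 to 45.1) and 193 of 593 in the Atg5-KO library (32.5%, 28.8 to 36.5). Cells with Lcn2 at 0.1% to under 1% numbered 46 and 69, and cells with at least 1% numbered 188 and 331. The median Lcn2 share of a member was 0.0103% in the control and 0.0112% in the Atg5-KO library. These shares lay below the medians of filtered cells of at least 2000 UMIs with a marker share under 0.15% (0.0189% and 0.0181%). No Lcn2 UMI was found in 35 and 22 members. Few cells lay near the limit: 16 control and 9 Atg5-KO members had 0.05% to under 0.1%, and 14 and 10 cells just outside had 0.1% to under 0.2%. At the other limit, 3 and 7 members had a marker share of 0.15% to under 0.2%, and 16 and 15 cells just outside had 0.1% to under 0.15%.

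The label was checked with markers the rule had not used. The 20 such Müller markers, among them the lipid carrier gene Apoe, Clu and the glial transcription factor gene Sox2, were all detected in both libraries. They summed to 16998 CPM (a gene's UMIs scaled to a common total, so that levels compare between libraries) in control and 10585 CPM in Atg5-KO members, against 3259 and 3319 CPM in all other filtered cells. Hes5 and Car14, the markers of the label that are not rule genes, were found in 28.8% and 68.6% of control members and in 10.4% and 35.8% of Atg5-KO members. With cells thinned to 2000 UMIs, Car14 was in 34.6% and 5.18% of members and in 0.152% of control and 0 of 352 Atg5-KO rod-rich cells, a count of 0 that allows a share of up to 0.852%. The members are thus Müller glia by their markers in both libraries, with the Atg5-KO members at lower marker levels.

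Depth and foreign RNA differed between the libraries. The members' median UMI count was 13833 in the control (2107 to 112373) and 19866 in the Atg5-KO library (2175 to 58706), with 2317495 and 3824837 UMIs in all. The 10 rod markers, all detected in both, summed to 1312 and 503 CPM, and reached or exceeded the rule genes' sum in 14 and 5 members. The 12 amacrine markers summed to 699 and 467 CPM and reached that sum in 5 and 8 members. The 14 bipolar markers summed to 491 and 261 CPM and reached it in 2 and 3 members. The 10 astrocyte markers summed to 806 and 453 CPM, above the 196 and 251 CPM of all other filtered cells. Of these, 9 were detected in both libraries, among them Gfap and Aldoc, which are given below, and only Pax2 was at 0. A single control cell held 482 of the 1868 control UMIs. Whether some of this was astrocyte RNA was not tested. The 10 endothelial markers summed to 1353 and 871 CPM, with Cdh5, Ly6c1 and Tie1 at 0 in both; nearly all of this was Flt1 and Kdr. The 12 monocyte, macrophage and microglia markers stood at only 25.5 and 30.6 CPM. A single cell held 543 of 695 neutrophil marker UMIs in the control and 264 of 498 in the Atg5-KO library, another 708 of the 731 pigment epithelium UMIs in the control, and another 5150 of the 5373 erythroid UMIs in the Atg5-KO library. The part of depth and foreign RNA in the results below was not tested. No cell barcode was shared by members of the 2 libraries, and 15 were shared over all barcodes.

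Atg5 itself (chromosome 10, 44268358 to 44364291 on mm10) had 55 UMIs in control members, 23.7 CPM (17.9 to 30.9), and 88 UMIs in Atg5-KO members, 23.01 CPM (18.5 to 28.3). The ratio of Atg5-KO over control was 0.969 (0.684 to 1.38). The assay counts the 3' end of a transcript, which can remain after an upstream exon is deleted, so this value checks neither the deletion nor the label.

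Over all genes the Atg5-KO members differed from the control members in 2 directions. Genes of gliosis and of chemokine release were higher in the Atg5-KO library, and genes of resting Müller glia stood lower. Of 11373 genes with at least 30 UMIs over both libraries, 473 (4.16%) were at least 2-fold higher and 1514 (13.3%) at least 2-fold lower, with a median log2 ratio of -0.23. TMM scaling, which centres the bulk of genes, adds 0.28 to every log2 ratio and turns this split to 789 higher and 864 lower with a median of 0.05, so the excess of lower genes depends on the scaling. Of 476 measured genes in the 20 gene lists, 61 (12.8%) were at least 2-fold higher and 47 (9.87%) lower. The shares over all genes, 4.16% higher and 13.3% lower, are the background for each list count below that compares all members of the libraries. For list counts among the metallothionein-rich members described below, the background is 443 of 9916 genes higher and 513 lower.

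**Figure D1:**
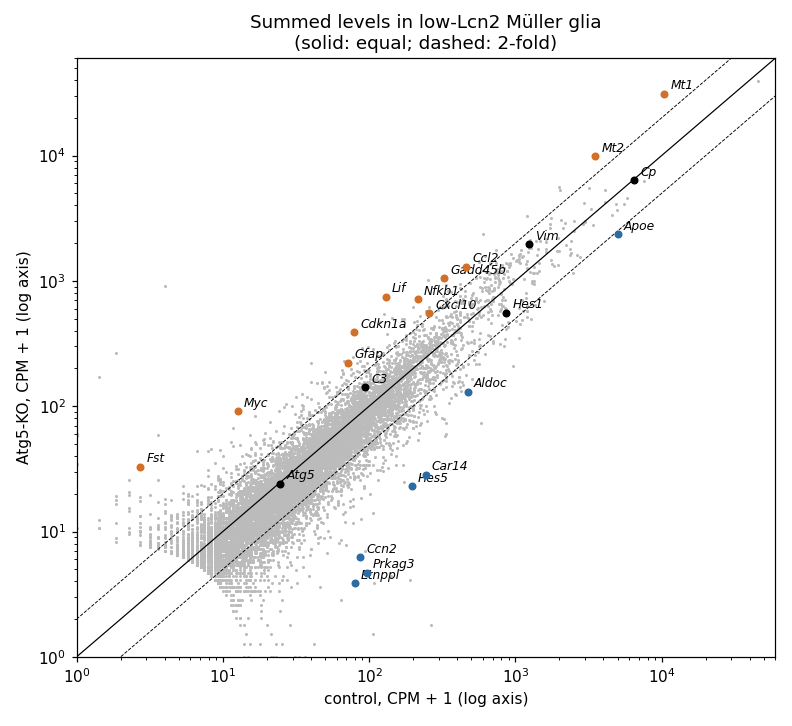
Summed level of every measured gene in low-Lcn2 Müller glia, control on the x axis and Atg5-KO on the y axis, as CPM + 1 on log axes. The solid line marks equal levels and the dashed lines 2-fold differences; Mt1, Lif, Myc and Cdkn1a lie above the upper dashed line, Hes5, Car14, Etnppl and Ccn2 below the lower one, and Cp and Atg5 near equality.

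Several genes of the Müller cell's supporting role were lower in the Atg5-KO library. Car14, a membrane carbonic anhydrase that buffers the space around photoreceptors (chromosome 3, 95897768 to 95904691), stood at 242 CPM (222 to 263) in control and 27.5 CPM (22.5 to 33.2) in Atg5-KO members, a ratio of 0.113. Its median over single cells was 168 CPM in control cells and 0 in Atg5-KO cells, where the highest cell reached 285 CPM against 2708 CPM in the control. Among the rule genes, which are given as a description only, Glul, the glutamine synthetase, was at 2957 and 936 CPM, Rlbp1, the retinaldehyde carrier, at 640 and 206 CPM, the transporter gene Abca8a at 593 and 84.2 CPM and the water channel gene Aqp4 at 654 and 304 CPM. The other rule genes were Dkk3 at 1295 and 788 CPM, the glutamate transporter gene Slc1a3 at 1084 and 949 CPM, the glial transcription factor gene Sox9 at 677 and 779 CPM and Crym at 1117 and 1554 CPM, the latter pair higher in the Atg5-KO library.

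In the list of ion, water, transmitter and retinoid handling, 2 of 22 measured genes were at least 2-fold higher (4.16% over all genes) and 6 lower (13.3% over all genes), with a median log2 ratio of -0.54. Summed over the list the libraries were closer, with a median of 4434 CPM over control and 3935 CPM over Atg5-KO members, and of 8 UMIs in both with cells thinned to 2000 UMIs. The glutamine transporter gene Slc38a3 was at 134 and 30.9 CPM. Kcnj10, the potassium channel of Müller endfeet, was at 122 and 64.3 CPM, a ratio of 0.529 (0.444 to 0.629). Among the metallothionein-rich members described below Kcnj10 was level, at 61.2 and 62.3 CPM (1.02, 0.742 to 1.42). In those members 2 of 19 genes of the list were higher, 1 lower and the median was -0.14. Gja1, a gap junction gene, is no evidence here, because all 242 of its control UMIs came from 1 cell. The lactate exporter gene Slc16a3 was on the higher side, at 3.02 and 11.0 CPM, but rested on 7 and 42 UMIs. With cells thinned to 2000 UMIs it was in 0.641% and 1.55% of members and in 4.55% and 5.97% of rod-rich cells. Its values thus lie below that background and give no Müller level.

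The identity and secreted factor list stood lowest, with 0 of 33 measured genes at least 2-fold higher and a median of -0.84. In it 12 (36.4%) were at least 2-fold lower, against 13.3% over all genes. Apoe was lower, at 4987 CPM (4897 to 5079) in control and 2354 CPM (2306 to 2403) in Atg5-KO members, and its median over cells was 4970 and 2051 CPM. Spc25, a kinetochore gene that marks mouse Müller glia, was at 583 and 72.9 CPM (0.125, 0.110 to 0.143). The growth factor gene Ptn was at 337 and 58.8 CPM (0.175), the collagen gene Col9a1 at 173 and 24.1 CPM (0.139), and the transcription factor genes Lhx2 and Rax at ratios of 0.430 and 0.370. Etnppl, an enzyme of phosphoethanolamine breakdown, was nearly absent from Atg5-KO members, with 11 UMIs (2.88 CPM) against 182 (78.5 CPM). Other abundant genes of secreted proteins differed little: Cp, the ferroxidase ceruloplasmin, stood at 6461 and 6349 CPM and Clu, the chaperone clusterin, at 4098 and 4228 CPM. Fgf2, a growth factor that protects photoreceptors, was higher at 88.0 and 146 CPM (1.66, 1.41 to 1.96), but not among the metallothionein-rich cells described below (0.978).

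**Figure D2:**
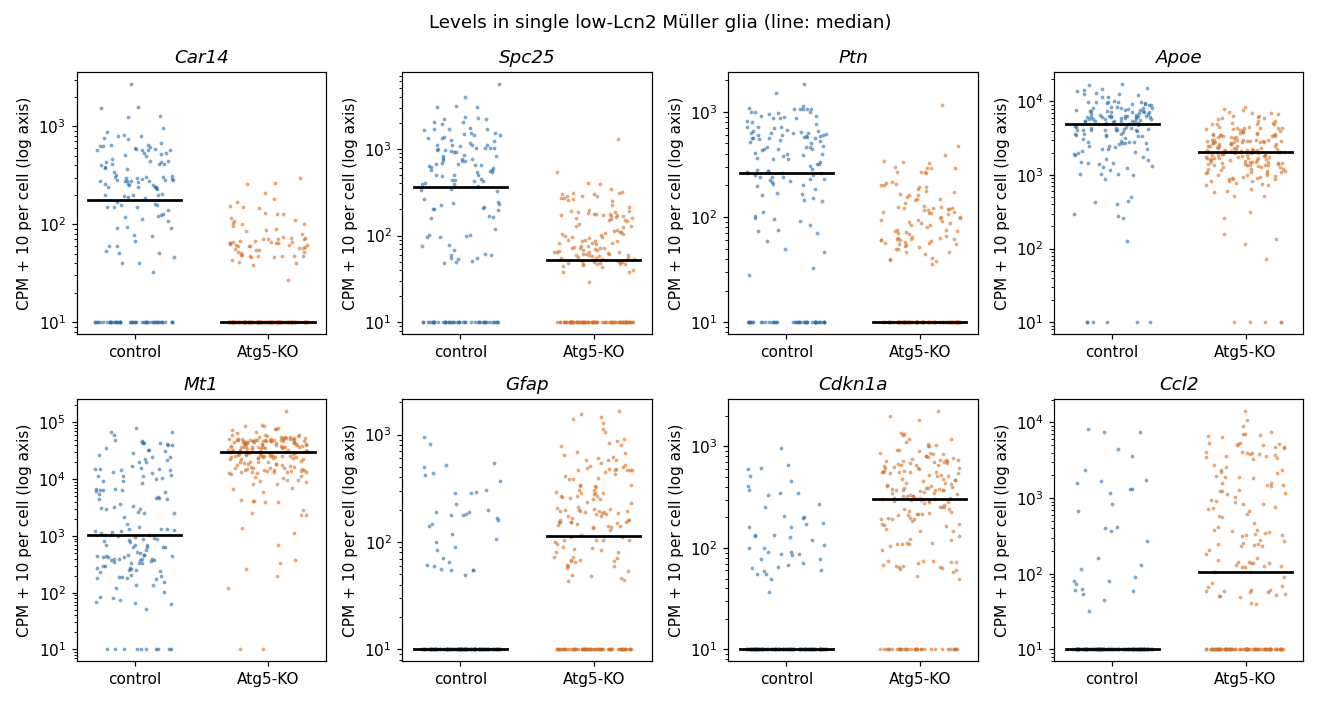
Level of 8 genes in each low-Lcn2 Müller cell (156 control, 193 Atg5-KO), as CPM + 10 on a log axis, so that cells without a UMI sit at 10; black lines are medians. Control cells spread over the whole range of Mt1, whereas most Atg5-KO cells are high, and Car14, Spc25 and Ptn are mostly low or undetected in Atg5-KO cells.

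Notch signalling maintains glial fate: ligands on neighbouring cells release the receptor's intracellular domain, which with RBPJ switches on Hes and Hey repressors. The Notch and Id list had 0 of 22 measured genes at least 2-fold higher and 7 (31.8%) lower, against 4.16% and 13.3% over all genes. The 7 were Notch2, Jag1, Hes5, Hey2, Lfng, Dner and Id1, and the list had a median of -0.57. With TMM scaling 1 was higher and 3 lower, and among the metallothionein-rich members described below 2 of 18 were higher, 0 lower and the median was 0.02. By role, the receptor gene Notch2 was at 89.3 and 43.9 CPM and Notch1 at 145 and 122 CPM, the ligand gene Jag1 at 8.63 and 2.61 CPM, and Lfng, which modifies the receptor with sugar, at 88.5 and 43.4 CPM. Of the targets, Hes1 was at 867 and 552 CPM (0.637, 0.599 to 0.677) and Hey2 at 55.7 and 20.9 CPM. Id2, an inhibitor of differentiation factors, was on the higher side at 197 and 358 CPM (1.82, 1.63 to 2.02).

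Hes5 (chromosome 4, 154960923 to 154962371) had the widest gap of this list, at 195 CPM (177 to 214) in control and 22.0 CPM (17.5 to 27.2) in Atg5-KO members, a ratio of 0.113. It was a gene of a minority of cells in both libraries: 45 control and 20 Atg5-KO members had a UMI, and with each cell thinned to 2000 UMIs the shares were 16.7% and 2.07%, against 0.758% and 1.70% in rod-rich cells, where it should be absent. The thinned Atg5-KO share is thus near background. Among metallothionein-rich members the ratios turned, to 2.80 (1.23 to 7.87, from only 6 control UMIs) for Hes5 and 1.08 (0.969 to 1.20) for Hes1. The 250 bases before the Hes5 start site (chr4:154960673-154960922, plus strand, GRCm38.p6, RefSeq) are shown because Hes5 is the Notch target that differed most. Capitals mark TGGGAA, the core bound by the Notch cofactor RBPJ, searched on both strands. It occurs 2 times here, once per strand, and 21.6% of 32817 promoter windows of the same length hold it.
Hes5 promoter: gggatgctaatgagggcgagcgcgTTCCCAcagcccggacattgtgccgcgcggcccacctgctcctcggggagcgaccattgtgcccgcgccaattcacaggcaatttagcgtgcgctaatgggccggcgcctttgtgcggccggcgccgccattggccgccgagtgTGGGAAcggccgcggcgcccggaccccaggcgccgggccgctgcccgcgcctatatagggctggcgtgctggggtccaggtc

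Reactive gliosis genes were higher although Lcn2 was low in every member. In that list 17 of 32 measured genes (53.1%, against 4.16% over all genes) were at least 2-fold higher and 2 lower, with a median of 1.12. The metallothioneins are small proteins that bind zinc and copper. Mt1 (chromosome 8, 94179082 to 94180327) was at 10448 CPM (10316 to 10580) in control and 31073 CPM (30896 to 31250) in Atg5-KO members, a ratio of 2.97, and Mt2 beside it at 3527 and 9847 CPM. Over single cells the sum of Mt1 and Mt2 had a median of 1092 CPM in control and 39843 CPM in Atg5-KO members, and quartiles of 408 and 14013 CPM against 20164 and 59111 CPM. The lower quartile of the Atg5-KO members thus lay above the upper quartile of the control members.

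Gfap, the intermediate filament gene of reactive glia, was at 71.2 CPM (60.7 to 82.9) and 220 CPM (206 to 236), a ratio of 3.09, with a UMI in 23.7% of control and 66.8% of Atg5-KO members. With cells thinned to 2000 UMIs the shares were 8.33% and 29.0%, against 0.455% of control rod-rich cells and 0 of 352 Atg5-KO rod-rich cells. Vim, which resting Müller cells also express, was closer, at 1243 and 1961 CPM (1.58, 1.51 to 1.65). Nes, an intermediate filament of progenitors, was at 88.0 and 209 CPM. The hyaluronan receptor gene Cd44 was at 319 and 750 CPM, the protease inhibitor gene Timp1 at 2010 and 5347 CPM and S100a6 at 1981 and 5642 CPM. Hbegf, an EGF receptor ligand, was at 172 and 495 CPM. Lif, an injury-induced cytokine of Müller glia, was at 129 CPM (115 to 145) and 746 CPM (719 to 774), a ratio of 5.76. The 2 genes on the lower side were Edn2, an endothelin (19.4 and 2.61 CPM), and Socs3, the feedback inhibitor of STAT3 signalling (177 and 49.4 CPM). With cells thinned, Edn2 was in 4.49% and 1.55% of members but in 21.2% and 18.2% of rod-rich cells. Its values thus lie below that background and give no Müller level, and 15 of its 45 control UMIs lay in 1 cell. Stat3 itself was level, at 479 CPM in both libraries.

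Chemokines and cytokines were likewise higher. Of 23 measured genes, 14 (60.9%, against 4.16% over all genes) were at least 2-fold higher, 2 (Il1b and Il15) were lower, and the median was 1.15. Ccl2, which draws monocytes, stood at 460 CPM (433 to 489) and 1298 CPM (1262 to 1335), a ratio of 2.82. It had a UMI in 19.9% and 60.1% of members, or in 12.8% and 38.3% of thinned cells, against 4.09% and 8.24% of thinned rod-rich cells. The neutrophil attractant genes Cxcl1 and Cxcl2 were at 143 and 500 CPM (3.49, 3.11 to 3.94) and at 166 and 492 CPM (2.97, 2.66 to 3.32). Cxcl10, an interferon-induced chemokine gene, was at 257 and 552 CPM (2.15, 1.96 to 2.35). A single cell held 136 of its 596 control UMIs, and another 488 of its 2111 Atg5-KO UMIs. Csf2 and Il11 were also on the higher side but at low levels (6.90 and 17.5 CPM, and 3.02 and 17.3 CPM). Ccl20 had 0 UMIs in the control and 227 in only 4 Atg5-KO cells, of which 167 lay in 1 cell, so no fold is given. Il1b, at 20.7 and 7.58 CPM, had 25 of its 48 control UMIs in 1 cell.

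The promoters of Cxcl1 (chr5:90890995-90891244) and Cxcl2 (chr5:90903649-90903898), both on the plus strand of GRCm38.p6 and from RefSeq, are shown because these neighbouring genes were higher together; they were chosen after their values were seen. Capitals mark a block read by the NF-kB consensus on both strands, GGGAATTTCCC, which lies within 100 bases of the start site in both. Of all 32817 promoter windows of this length, 5.93% hold the consensus.
Cxcl1 promoter: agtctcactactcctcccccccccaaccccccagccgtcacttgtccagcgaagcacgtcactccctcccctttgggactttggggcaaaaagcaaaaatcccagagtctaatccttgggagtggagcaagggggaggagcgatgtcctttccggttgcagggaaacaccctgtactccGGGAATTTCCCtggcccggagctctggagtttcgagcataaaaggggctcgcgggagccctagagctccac
Cxcl2 promoter: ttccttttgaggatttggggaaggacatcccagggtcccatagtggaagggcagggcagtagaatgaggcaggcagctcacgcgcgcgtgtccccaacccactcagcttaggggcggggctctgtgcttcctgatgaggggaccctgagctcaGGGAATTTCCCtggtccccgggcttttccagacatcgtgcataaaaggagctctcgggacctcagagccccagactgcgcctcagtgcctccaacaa

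Genes of LPS sensing and NF-kB differed less as a list, with 5 of 33 measured genes at least 2-fold higher (Ly96, Tlr2, Nfkb1, Rel and Birc3), 1 lower (Tnip2) and a median of 0.31. The receptor chain Tlr2 was at 12.1 and 47.6 CPM (3.94, 2.64 to 6.09), and Ly96, the LPS-binding partner of TLR4, at 5.18 and 12.6 CPM. Nfkb1, which encodes the p105 and p50 subunit (chromosome 3, 135584655 to 135691547), was at 215 CPM (196 to 235) and 712 CPM (686 to 740), a ratio of 3.32. Nfkbia, the inhibitor that holds the factor in the cytoplasm, was at 426 and 695 CPM (1.63, 1.52 to 1.76). Tnip2 rested on 39 and 32 UMIs, and its ratio of 0.497 turned to 1.62 when cells were thinned to 2000 UMIs.

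Acute-phase and complement genes, which are commonly induced together with Lcn2, were low in the members of both libraries and higher in part in the Atg5-KO members. Against cells with at least 1% Lcn2, 8 of 10 measured acute-phase genes and 5 of 9 complement genes were at least 2-fold lower in control members (7.73% over all genes), and 7 of 10 and 4 of 9 in Atg5-KO members (5.56% over all genes). Between the libraries, in the acute-phase list 5 of 10 measured genes were at least 2-fold higher and 0 lower, with a median of 0.82. Among metallothionein-rich members 1 of 9 was higher and the median was 0.10, with Chil1 at 1.08 and Ptx3 at 1.30. The chitinase-like gene Chil1 was at 345 and 694 CPM (2.01, 1.86 to 2.18) and the pentraxin gene Ptx3 at 43.2 and 152 CPM (3.53), with 139 of its 582 Atg5-KO UMIs in 1 cell. The complement list had 2 of 9 higher, 1 lower and a median of 0.50. Cfb, a protease of the alternative pathway, was at 52.2 and 118 CPM (2.26). C3, the central component, was at 92.8 CPM (80.8 to 106) and 140 CPM (129 to 152), a ratio of 1.51 that turned to 0.847 among metallothionein-rich members.

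Interferon genes were mixed. The type I list had 4 of 29 (13.8%) at least 2-fold higher (Isg20, Rsad2, Ifi204 and Zbp1), 0 lower and a median of 0.46. The list of interferon gamma, guanylate-binding and antigen presentation genes had 3 of 33 (9.09%) higher, 2 (6.06%) lower and a median of 0.40. Over all genes the shares were 4.16% higher and 13.3% lower. Ifit3, an antiviral effector, was at 392 and 634 CPM (1.62), and the guanylate-binding gene Gbp5 at 14.2 and 58.3 CPM (4.09, 2.83 to 6.10). Of the class I genes, B2m was at 911 and 964 CPM (1.06, 1.003 to 1.12) and H2-D1 at 712 and 839 CPM (1.18, 1.11 to 1.25). Among metallothionein-rich members B2m (0.979) and H2-D1 (0.923) crossed equality, whereas Ifit3 (1.91) and Gbp5 (3.20) stayed higher. The type I list there had 5 of 28 higher, 0 lower and a median of 0.31. The interferon gamma list had 4 of 31 higher, 0 lower and a median of 0.41. Over all genes in those members, 443 of 9916 were higher and 513 lower.

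Growth arrest genes included some of the widest gaps. Cdkn1a, the cell cycle inhibitor p21 (chromosome 17, 29090976 to 29100727), was at 77.7 CPM (66.7 to 89.9) and 387 CPM (368 to 407), a ratio of 4.99. A UMI was found in 28.8% and 82.4% of members, or 8.33% and 49.2% with cells thinned to 2000 UMIs, against 0.152% and 1.14% of rod-rich cells. Gadd45b, a stress-induced arrest gene, was at 325 and 1047 CPM (3.22, 2.98 to 3.48), whereas its relative Gadd45g was at 161 and 72.2 CPM. The p53 target Sesn1 was at 55.2 and 23.8 CPM (0.431). The whole list had 4 of 24 at least 2-fold higher, 2 lower and a median of 0.15. Only 7 of 24 cell cycle genes reached 30 UMIs, with Mki67 and Top2a among those below it, and 0 of these 7 differed 2-fold in either direction. The early response list had 3 of 32 (9.38%) higher and 5 (15.6%) lower, against 4.16% and 13.3% over all genes, with a median of -0.20. With TMM scaling the list had 7 higher, 3 lower and a median of 0.08. Its most abundant members, Fos and Jun, were at 5795 and 4563 CPM and at 4578 and 3335 CPM, while the growth regulator gene Myc was at 11.7 and 89.9 CPM (7.72, 5.21 to 11.9). The ratio of Myc was 2.71 among metallothionein-rich members, 12.1 with cells thinned and 23.6 without the 5 cells with most of its UMIs. Dusp1, a phosphatase that ends MAP kinase signals, was at 1004 and 475 CPM. Ccn2, a matrix protein gene, was at 85.9 and 5.23 CPM.

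Autophagy genes stayed close to equal. Of 38 measured, 0 were at least 2-fold higher and 1 (Calcoco1, an autophagy receptor, at 27.2 and 9.67 CPM) was lower, with a median of -0.16 that TMM scaling turned to 0.11. Sqstm1, the receptor p62 that autophagy itself degrades as a protein, was at 302 and 357 CPM of RNA (1.18, 1.08 to 1.30). Gabarap, an LC3 relative, was at 279 and 335 CPM and the membrane-recruiting gene Wipi2 at 47.5 and 91.5 CPM (1.93, 1.55 to 2.41). The lysosome list had 1 of 30 higher, Atp6v1b2 of the proton pump (82.0 and 189 CPM), and 0 lower. After thinning of cells, Atp6v1b2 was in 12.8% and 24.9% of members and in 27.7% and 25.9% of rod-rich cells. The values of Atp6v1b2 thus do not exceed that background and give no Müller level. The list's median of -0.10 became 0.18 with TMM scaling.

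Stress and metabolic lists also held few genes past 2-fold. The unfolded protein list had 0 of 23 in either direction with Hspa5, the chaperone BiP, at 418 and 487 CPM, and the cholesterol list 0 of 22. Heat shock genes had 0 of 18 higher and 2 lower. Hspb8, 1 of those, had 28 of its 34 control UMIs in 1 cell and turned under several settings. In the oxidative stress and iron list 2 of 27 were higher and 2 lower. There the cystine transporter gene Slc7a11 was at 68.2 and 148 CPM (2.17, 1.82 to 2.61), the ferritin heavy chain Fth1 at 3205 and 5492 CPM (1.71, 1.67 to 1.76), and the detoxifying enzyme gene Gsta4 at 96.7 and 35.3 CPM. Among metallothionein-rich members the ratios were 1.02 (0.832 to 1.26) for Slc7a11, 1.60 for Fth1 and 1.09 for Gsta4. Glycolysis had 1 of 23 higher (Slc16a3, with the limit given above) and 2 lower. Aldoc, the aldolase of resting glia, was at 472 and 129 CPM (0.274, 0.245 to 0.305) and Gapdh at 1201 and 1272 CPM.

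**Figure D3:**
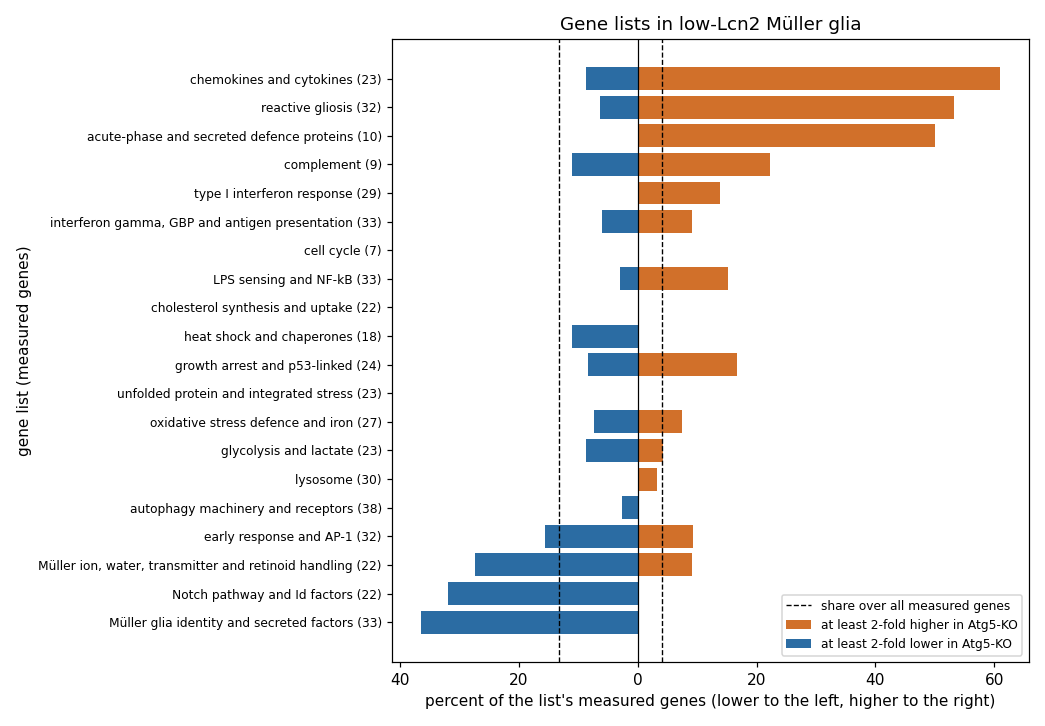
Percent of each list's measured genes that were at least 2-fold lower (blue, to the left of 0) or higher (orange, to the right) in Atg5-KO than in control low-Lcn2 Müller glia, with the number measured in brackets and lists ordered by median log2 ratio. Dashed lines give the shares over all measured genes, 13.3% lower and 4.16% higher; chemokines and reactive gliosis reach furthest to the right, and identity and Notch genes furthest to the left.

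By the naming rule, whether in a list or not, the 10 largest ratios belonged to Cdt1, Fst, Bicdl2, Myc, Stx11, Rasl11b, Fam220a, Aldh1a3, Tmem88 and Lif. A gene had to be found in at least 10% of members only in the library where it was higher, so a low level in the other library follows from that choice. Several had few control UMIs. Cdt1, a DNA replication licensing gene, had 1 control and 37 Atg5-KO UMIs (ratio 22.4, 3.78 to 909), and Fst, the activin inhibitor follistatin, had 4 and 122 (18.5, 7.04 to 68.9). Aldh1a3, which makes retinoic acid, had 16 and 164 UMIs (6.21, 3.71 to 11.1), and the vesicle fusion gene Stx11 had 13 and 164 (7.64, 4.35 to 14.7). The 10 smallest ratios belonged to Syt10, Etnppl, Prkag3, Ramp1, Adamts6, Cmtm5, Omg, Ccn2, Aass and Prkcq. Prkag3, a subunit of the energy sensor AMPK, had 221 and 14 UMIs. Syt10, a calcium sensor of exocytosis, had 64 and 3 UMIs, a ratio of 0.0284 (0.00571 to 0.0868).

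The control members were not uniform in their metallothioneins. A range of Mt1 and Mt2 together at 1% of UMIs or more was chosen after the values were seen. It is a range and not a cell type: 26 control and 31 Atg5-KO members lay between 0.5% and 2%. It held 44 of 156 control members (28.2%, 21.3 to 36.0) and 171 of 193 Atg5-KO members (88.6%, 83.3 to 92.7). The 112 control members below it had 3908 CPM of Glul, 291 CPM of Hes5 and 337 CPM of Car14, with 11.7 CPM of Gfap, 73.7 CPM of Ccl2 and 9.78 CPM of Lif. The 44 control members in it had 1097 CPM of Glul, 7.65 CPM of Hes5 and 57.4 CPM of Car14, with 187 CPM of Gfap, 1217 CPM of Ccl2 and 363 CPM of Lif. The 171 Atg5-KO members in it had 953, 21.4 and 27.4 CPM of the first 3 genes and 226, 1332 and 778 CPM of the others. The 22 Atg5-KO members below it did not have the control's resting levels, with 749 CPM of Glul, 27.6 CPM of Car14 and 930 CPM of Ccl2. Rod markers summed to 1404 and 1265 CPM in the control members in and below the range, and to 517 and 353 CPM in the Atg5-KO members.

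Within the metallothionein-rich range the libraries were closer. Of 9916 measured genes, 443 were at least 2-fold higher and 513 lower, with a median log2 ratio of -0.13. Reactive gliosis had 2 of 31 higher, 1 lower and a median of 0.13 in place of 1.12, with a higher share near that over all genes. The ion and transmitter list had 2 of 19 higher, 1 lower and a median of -0.14. The identity list had 0 of 33 higher, 6 lower and a median of -0.37, and chemokines 6 of 23 higher, 2 lower and a median of 0.35. The lower share of identity genes and the higher share of chemokines stayed above those over all genes. Gfap (1.21, 1.01 to 1.45), Ccl2 (1.10, 1.02 to 1.18), Mt1 (1.18) and S100a6 (1.19) lay near equality. Other genes kept a gap: Cxcl10 at 171 and 540 CPM (3.16, 2.65 to 3.79), Cdkn1a at 165 and 402 CPM (2.44, 2.04 to 2.95), Gadd45b at 451 and 1077 CPM (2.39), Nfkb1 at 329 and 741 CPM (2.25), Lif at 363 and 778 CPM (2.14, 1.89 to 2.43) and Gbp5 at 17.9 and 57.2 CPM (3.20). The serine protease gene Prss56, picked after its values were seen, was at 925 and 2358 CPM (2.55, 2.36 to 2.76). On the lower side, Spc25 was at 165 and 70.3 CPM (0.427), Car14 at 57.4 and 27.4 CPM (0.478, 0.332 to 0.697) and Apoe at 3347 and 2307 CPM (0.689). Because the range is set on a readout that differs between the libraries, these values describe the cells and do not separate their causes.

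Set against the Müller-marker cells with at least 1% Lcn2, the low-Lcn2 cells stood apart in more genes in the control than in the Atg5-KO library, a contrast between libraries that was not tested. The Lcn2 limit is part of the rule, so this is a description, each library on its own. In the control, 1754 of 12417 measured genes (14.1%) were at least 2-fold higher in the low-Lcn2 cells and 960 (7.73%) lower. In the Atg5-KO library 406 of 12721 (3.19%) were higher and 707 (5.56%) lower. The median depth of the high-Lcn2 cells was 27348 UMIs in the control and 22634 UMIs in the Atg5-KO library, and the part of depth was not tested.

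In the control, 14 of 33 measured identity genes were at least 2-fold higher in low-Lcn2 cells (14.1% over all genes). So were 9 of 22 of ion, water, transmitter and retinoid handling and 9 of 22 Notch and Id genes. In the Atg5-KO library 2, 1 and 3 genes of these lists were higher (3.19% over all genes). The low-Lcn2 cells had 195 CPM of Hes5 against 2.33 CPM in the high-Lcn2 cells of the control, and 22.0 against 6.36 CPM in the Atg5-KO library. Car14 was at 242 against 15.4 CPM in the control and 27.5 against 16 CPM in the Atg5-KO library. Higher in low-Lcn2 cells of both libraries by the naming rule were Slc44a5, Bmp5, Lama1, Pcolce2, Adamts18, Fxyd3, Cxcl10 and Hes5. Cxcl10, the chemokine gene among these, was not low where Lcn2 was low: low-Lcn2 cells had 257 against 82.4 CPM in the control and 552 against 201 CPM in the Atg5-KO library. Those lower in low-Lcn2 cells of both included Ifitm1, Cxcl5, Frmpd4, Ptges2, Dhrs3 and Fabp5. The interferon-induced Ifitm1 was at 17.3 against 2416 CPM in the control and 9.41 against 745 CPM in the Atg5-KO library, and the neutrophil attractant gene Cxcl5 at 9.06 against 468 and 15.9 against 378 CPM.

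Some genes that separated the libraries were not higher at higher Lcn2 in the Atg5-KO library. In the Atg5-KO library Cdkn1a was at 387 CPM in low-Lcn2 cells, 337 CPM in those of 0.1% to under 1% and 260 CPM in high-Lcn2 cells, and in the control at 77.7, 98.5 and 70.6 CPM. Mt1 was at 31073, 26464 and 25397 CPM in the Atg5-KO library, whereas in the control it was at 10448, 10616 and 13786 CPM, with medians over cells of 1030, 4170 and 13219 CPM. Gfap was at 220, 200 and 171 CPM in the Atg5-KO library and at 71.2, 192 and 142 CPM in the control, with the lowest value in the low-Lcn2 control cells. C3 went with Lcn2 in both libraries, at 92.8, 293 and 1514 CPM in the control and 140, 216 and 870 CPM in the Atg5-KO library.

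**Figure D4:**
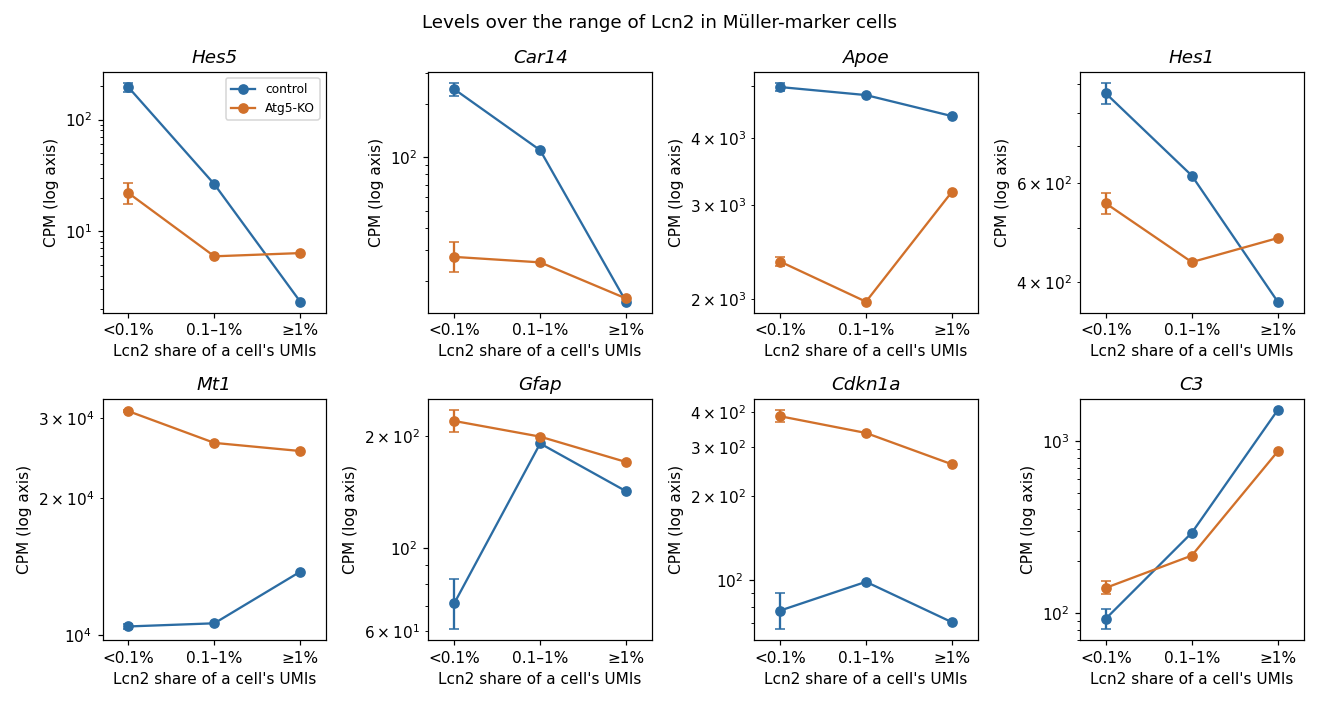
Level of 8 genes (CPM, log axis) in Müller-marker cells of rising Lcn2 share, control in blue and Atg5-KO in orange; error bars are 95% counting intervals, drawn for the low-Lcn2 cells only. Hes5 and Car14 are lower at higher Lcn2, with a wider span in the control, C3 is higher at higher Lcn2 in both, and Mt1 and Cdkn1a are higher in Atg5-KO cells at every Lcn2 share.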

How the data were processed

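The values analysed were the deposited raw UMI counts of each gene in each barcode, which the authors made with Cell Ranger 6.0.0 on mm10, per the labels' protocols and the submitters' processing notes, which also name Seurat 5.2.1. Papain was used to dissociate the retinas, and the libraries were 10x 3' libraries, per the labels' protocols. The libraries held 43669961 UMIs in 8690 control and 50676223 UMIs in 5229 Atg5-KO barcodes, of which 8274 and 4662 passed the study's stated filter. The authors' gene annotation is not given in the sources used here.

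Members' counts were summed per library and given as CPM with exact Poisson intervals, ratios with exact conditional binomial intervals and shares with Clopper-Pearson intervals, all at 95%. A gene was measured with at least 30 UMIs over both libraries, and log2 ratios had 0.5 added to both counts. The scripts were tested on simulated data. Scrublet in scanpy 1.11.5 called 0 doublets by its automatic threshold and so has not worked; none were removed. Thinning used 2000 UMIs and seed 1, and rod-rich cells had at least 1% rod marker UMIs (660 control, 352 Atg5-KO, median 3231 and 3698 UMIs). TMM factors came from edgeR 4.0.16. Python 3.11.15, scipy 1.17.1 and R 4.3.3 were used. Gene positions are from GENCODE annotation of the same build.

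The members and lists were chosen with earlier results of these data known. Named genes were the 10 largest and 10 smallest ratios among genes found in at least 10% of members, with at most 25% of UMIs in 1 cell, both in the library where the gene was higher, the extreme ratios and 2 highest levels of each list, the genes furthest apart by Lcn2 and a set always named. Other genes given with values from the lists were picked after their values were seen. Results of all 20 lists are printed. Some genes that the rule names are not reported here, although counts over lists and over all genes include them.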

Additional observations from a re-analysis of the deposited data

Results flagged for a closer look

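Of 110 named genes outside the rule, 28 had ratios of Atg5-KO over control in opposite directions, past counting error, in low-Lcn2 cells and in cells with at least 1% Lcn2, and 8 of them were at least 1.5-fold on each side. The difference itself was not tested, since there is 1 library per group. The same share over all measured genes was not counted. Many of the named genes were picked for extreme ratios between the libraries or between low-Lcn2 and high-Lcn2 cells. The 2 counts therefore describe these genes only and cannot be set against a background. Resting or matrix genes lay lower in low-Lcn2 cells and higher in high-Lcn2 cells of the Atg5-KO library: Ccn2 (0.0609 and 1.51), Hes5 (0.113 and 2.73) and Bmp5, a bone morphogenetic protein gene (0.327 and 2.11). In the high-Lcn2 cells Hes5 and Bmp5 were low in both libraries, at 2.33 and 6.36 CPM and at 1.92 and 4.06 CPM. Secreted defence and iron genes lay the other way: Chil1 (2.01 and 0.570), the complement inhibitor gene Serping1 (1.54 and 0.635), C3 (1.51 and 0.575), Slc7a11 (2.17 and 0.614) and Fth1 (1.71 and 0.662). Among metallothionein-rich members of low Lcn2 most of these ratios were near or below equality. They were 1.08 (0.979 to 1.19) for Chil1, 1.12 (0.939 to 1.35) for Serping1, 0.847 for C3 and 1.02 (0.832 to 1.26) for Slc7a11. Fth1 stayed at 1.60, Ccn2 at 0.162 and Bmp5 at 0.501, while Hes5 turned to 2.80. Fth1 stood at 3205 and 5492 CPM in low-Lcn2 and at 19849 and 13148 CPM in high-Lcn2 cells of the control and Atg5-KO libraries.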

How the results depend on the processing

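No paired analysis was possible because each group has 1 library, and for that reason no replicate could be left out. The ranges of metallothioneins at 1% or more and at least 10000 UMIs, and the limit to members whose rule genes exceed every other cell class were added after seeing the data. Of 60 alternative values for counts and shares, 44 stayed near the reported one. With at least 4000 UMIs the control share was 1.52%. Genes at least 2-fold higher and lower numbered 279 and 534 with cells thinned (4264 genes measured), 789 and 864 with TMM scaling, and 443 and 513 in metallothionein-rich members. List genes higher and lower numbered 93 and 31 with TMM scaling, 31 and 14 in metallothionein-rich members, and 121 and 92 at 1.5-fold. With thinning, genes higher and lower in low-Lcn2 cells numbered 577 and 284 in the control and 150 and 147 in the Atg5-KO library. Fewer genes are measured when cells are thinned; the cause of the other shifts was not tested.

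Of 1335 alternative ratios of named genes, 33 reversed. Over these ratios and the list medians, 290 other alternative values moved (a ratio out of its counting interval, a median by at least 0.5), among them the medians of the Notch, gliosis, chemokine and acute-phase lists in metallothionein-rich members (0.02, 0.13, 0.35 and 0.10). In metallothionein-rich members the reversals were Hes5 (2.80), Hes1 (1.08), Fgf2 (0.978), C3 (0.847), Bst2 (0.994), B2m (0.979), H2-D1 (0.923), Btg2 (1.19), Hspb1 (0.677), Hspb8 (1.12), Cryab (0.942), Hsp90ab1 (0.915), Gsta4 (1.09), Hspa5 (0.982), Hmgcs1 (0.822), Msmo1 (0.878) and Ifitm1 (1.27). With cells thinned they were Tnip2 (1.62), Hsd17b7 (0.988) and Ifitm1 (2.42). With markers of at least 0.3% they were Hspb8 (2.14) and Ifitm1 (1.04). With the rule genes above every other class they were Hspb8 (1.87), Cryab (0.991), Ifitm1 (1.09) and Frmpd4 (1.29). By the mean of per-cell CPM they were Hspb8 (1.59) and Frmpd4 (1.21). Without the 5 cells with most UMIs of the gene they were Hspb8 (2.85), Frmpd4 (4.02) and Fabp5 (2.33). Eno1 reversed with TMM scaling (1.13) and Fabp5 with Lcn2 under 0.05% (1.22). In all of these the cause was not tested.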
